A study of Mus musculus with 18 samples.

Results

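Alveolar macrophages, the resident phagocytes of the airspaces, were examined for 7 genes whose RNA level differed between the control mice of 3 crosses: L3hypdh, Dhrs7, Mpp5, Plekhh1 and Clmn on mouse chromosome 12, the chromosome of Hif1a, and Prkce and Epcam on chromosome 17, the chromosome of Epas1, which encodes HIF-2α. They are 7 of the 32789 genes in the deposited table. They were picked because their levels differ between the 3 control groups, so the control levels are given here as a description, without a test; the knockout libraries took no part in that choice.

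The cells came from bronchoalveolar lavage and were enriched on magnetic columns with CD11c beads, and polyA RNA was sequenced in 18 libraries, 3 for each of 6 groups. The knockout groups carry CD11c-Cre, a recombinase driven in CD11c-positive cells, and by their labels lack Vhl and Hif1a (Vhl/Hif1a knockout), Vhl and Hif2a (Vhl/Hif2a knockout) or all 3 genes (triple knockout). Each has its own control, labelled Vhl-Hif1a, Vhl-Hif2a or Vhl-Hif1-Hif2a flox-flox; whether Cre was absent, the strain, the age and the number of mice behind a library are not given in the labels, so p-values measure the spread between libraries, which may be technical. A floxed Vhl allele is thus common to all 6 groups. By the labels, floxed Hif1a is carried in the Vhl/Hif1a cross and the triple cross and not in the Vhl/Hif2a cross, and floxed Hif2a in the Vhl/Hif2a and triple crosses and not in the Vhl/Hif1a cross.

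Libraries held 19230452 to 34015320 counts. Vhl transcript fell in all 3 knockouts, to 2.88 CPM against 16.9 in the Vhl/Hif1a cross, 2.25 against 18.7 in the Vhl/Hif2a cross and 2.20 against 12.9 in the triple cross (CPM: normalised read counts, with library sizes scaled by TMM), and was called in each comparison. The other deletions were not borne out by RNA level. Hif1a RNA was not called in the Vhl/Hif1a knockout (194 CPM, against 229 CPM in its control, adjusted p = 0.66, edgeR) or the triple knockout (239 CPM, against 209 CPM, adjusted p = 0.56). In the libraries labelled Vhl/Hif2a knockout, by contrast, Hif1a RNA fell to 66.3 CPM, against 217 CPM in their control (log2 fold change -1.71, adjusted p = 4.3e-06), and Epas1 RNA rose to 54.2 CPM, against 27.6 CPM (0.97, adjusted p = 0.0019). The label names Hif2a, and not Hif1a, as deleted beside Vhl, while the RNA that fell was that of Hif1a. What lies behind this was not tested. Epas1 was not called in the triple knockout (34.2 CPM, against 40.4 CPM in its control, adjusted p = 0.51). Which exons were removed is not given in the labels and the table holds 1 value per gene, so loss of an exon could not be checked. The labels were not checked through other genes. The groups and carriers below are named as labelled, and each direction drawn from the Vhl/Hif2a knockout rests on that label. The 10 alveolar macrophage markers summed to 20900 to 37700 CPM in every library, against 35.6 to 108 CPM for 5 neutrophil markers, 8.51 to 36.7 CPM for 8 markers of dendritic cells, which can carry CD11c too, and at most 0.931 CPM for B, T and NK cell markers. Xist, which is transcribed in female cells, was between 291 and 745 CPM in all 12 libraries of the crosses Vhl/Hif1a and Vhl/Hif2a, and at or below 0.377 CPM in all 6 libraries of the triple cross, where Ddx3y of the Y chromosome was at 47.3 to 110 CPM. A difference between the triple cross and the others therefore cannot be told apart from the sex of the mice, while the other two crosses can be compared within female libraries.

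As background, VHL targets HIF-1α and HIF-2α, the oxygen-regulated subunits of hypoxia-inducible factors, for breakdown, and loss of VHL leaves both active unless their genes are lost too. Genes that lie close together on a chromosome are inherited together, so DNA beside an engineered allele can travel with it through a cross. The count table holds no sequence variants, so the strain origin of the DNA around any of these genes was not tested.

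On GRCm38, L3hypdh (ENSMUSG00000019718, chr12:72073428-72085439, minus strand) and Dhrs7 (ENSMUSG00000021094, chr12:72650353-72664909, minus strand) start 1.82 and 1.24 Mb before the start of Hif1a. Mpp5 (ENSMUSG00000021112, chr12:78748907-78840714, plus strand) and Plekhh1 (ENSMUSG00000060716, chr12:79029163-79081655, plus strand) lie 4.85 and 5.13 Mb beyond it. Clmn (ENSMUSG00000021097, chr12:104763117-104865076, minus strand) lies 31.0 Mb beyond it, so the label "linked" is loosest for this gene. Prkce (ENSMUSG00000045038, chr17:86167785-86657919, plus strand) starts 0.59 Mb before the start of Epas1, and Epcam (ENSMUSG00000045394, chr17:87635979-87651129, plus strand) 0.88 Mb beyond it. RefSeq (GRCm38.p6) gave promoter sequence for 5 of the 7 genes. The 250 bases before the start are shown, 5′ to 3′ on the gene's strand, for the genes with the largest cross differences among these on each side, Clmn and Plekhh1 (chromosome 12) and Epcam (chromosome 17), with matches to the HIF core motif, ACGTG or GCGTG on either strand, in capitals:
Clmn, chr12:104865077-104865326: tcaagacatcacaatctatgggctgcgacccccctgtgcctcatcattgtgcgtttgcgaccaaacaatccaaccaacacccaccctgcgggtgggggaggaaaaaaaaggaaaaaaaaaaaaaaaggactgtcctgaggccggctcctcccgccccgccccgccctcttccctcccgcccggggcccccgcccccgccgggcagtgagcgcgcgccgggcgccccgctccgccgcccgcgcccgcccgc
Plekhh1, chr12:79028913-79029162: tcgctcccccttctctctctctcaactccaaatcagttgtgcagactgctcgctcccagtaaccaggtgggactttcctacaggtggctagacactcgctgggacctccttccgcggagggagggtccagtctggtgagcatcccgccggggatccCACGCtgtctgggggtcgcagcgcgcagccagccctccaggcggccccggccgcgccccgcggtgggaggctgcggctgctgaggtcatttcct
Epcam, chr17:87635729-87635978: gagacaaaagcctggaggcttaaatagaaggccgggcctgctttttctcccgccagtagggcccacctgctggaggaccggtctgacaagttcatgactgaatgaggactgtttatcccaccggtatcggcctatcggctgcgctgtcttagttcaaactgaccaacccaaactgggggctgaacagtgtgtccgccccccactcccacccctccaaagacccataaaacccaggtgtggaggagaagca
Plekhh1 held 1 match, on the opposite strand 94 bases before the start, and Clmn and Epcam held none in this window. L3hypdh held 3 matches and Dhrs7 held 1. Of all 32851 mouse promoter windows of this length, 38.6% held at least 1.

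Clmn encodes calmin, a membrane protein with a calponin-homology domain. Its transcript was almost missing from both knockouts that carry floxed Hif1a, with 0.225, 0.745 and 0.430 CPM in the Vhl/Hif1a knockout and 0.377, 0.518 and 0.178 CPM in the triple knockout, against 214, 193 and 234 CPM in the Vhl/Hif2a knockout. The control libraries were split in the same places: 0.211, 0.308 and 0.656 CPM in the Vhl/Hif1a control and 0.329, 0.0832 and 0.496 CPM in the triple control, against 179, 224 and 188 CPM in the Vhl/Hif2a control. No carrier library came near any library of the Vhl/Hif2a cross. In raw counts, carrier libraries held 2 to 20 and the lowest library of the Vhl/Hif2a cross 3503.

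Plekhh1 encodes a protein with pleckstrin-homology and FERM domains. It was scarce everywhere, at 0.263, 0.112 and 0.352 CPM in the Vhl/Hif1a knockout and 0.206, 0.0971 and 0.107 CPM in the triple knockout, against 1.55, 3.91 and 0.986 CPM in the Vhl/Hif2a knockout. In controls it was at 0.295, 0.132 and 0.309 CPM in the Vhl/Hif1a cross and 0.132, 0.125 and 0.344 CPM in the triple cross, against 2.04, 0.463 and 1.16 CPM in the Vhl/Hif2a cross. Carriers were lower without overlap in both comparisons, and the libraries of the Vhl/Hif2a cross themselves spread widely. Plekhh1 passed the filter on low counts only through that cross, so it had to differ there. It also overlaps Pigh, which is on the other strand at a mean of 14.2 CPM; the strand setting of the counting is not given in the sources used here, so the Plekhh1 values are uncertain.

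Dhrs7, a short-chain dehydrogenase/reductase of the endoplasmic reticulum, was at 59.7, 56.1 and 61.2 CPM in the Vhl/Hif1a knockout and 47.0, 46.6 and 45.9 CPM in the triple knockout, against 145, 221 and 152 CPM in the Vhl/Hif2a knockout. The controls held 48.5, 42.0 and 46.5 CPM in the Vhl/Hif1a cross and 46.4, 56.0 and 49.7 CPM in the triple cross, against 124, 78.6 and 122 CPM in the Vhl/Hif2a cross. The carriers lay below the Vhl/Hif2a cross in every library.

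Mpp5, also called Pals1, is a scaffold of the Crumbs cell polarity complex. It was at 21.7, 22.0 and 19.3 CPM in the Vhl/Hif1a knockout and 24.0, 20.98 and 21.4 CPM in the triple knockout, against 34.9, 39.8 and 27.6 CPM in the Vhl/Hif2a knockout. In controls it was at 17.5, 20.7 and 21.7 CPM in the Vhl/Hif1a cross and 20.6, 10.7 and 20.6 CPM in the triple cross, against 46.2, 33.3 and 46.4 CPM in the Vhl/Hif2a cross. This was the smallest gap between knockout groups among the 4 genes lower in carriers. Triple control library 2 stood low, and its Hif1a level, 137 CPM, was also the lowest of its group.

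L3hypdh, trans-L-3-hydroxyproline dehydratase, behaved differently in knockouts and controls. The knockout libraries held 1.69, 1.64 and 1.95 CPM in the Vhl/Hif1a cross and 1.51, 1.04 and 0.857 CPM in the triple cross, against 1.32, 0.838 and 1.49 CPM in the Vhl/Hif2a cross. The control libraries held 1.60, 1.06 and 1.196 CPM in the Vhl/Hif1a cross and 1.28, 1.66 and 1.30 CPM in the triple cross, against 0.511, 0.579 and 0.232 CPM in the Vhl/Hif2a cross. Carriers and the Vhl/Hif2a cross overlapped among knockouts and did not among controls, and the Vhl/Hif2a control rests on only 10, 15 and 5 counts.

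On chromosome 17, Prkce encodes protein kinase C epsilon, a kinase activated by diacylglycerol and known in macrophages for its part in the response to lipopolysaccharide. It was at 35.3, 25.4 and 40.3 CPM in the Vhl/Hif2a knockout and 27.6, 28.1 and 30.7 CPM in the triple knockout, against 1.80, 2.72 and 2.42 CPM in the Vhl/Hif1a knockout. The controls held 27.6, 41.1 and 39.5 CPM in the Vhl/Hif2a cross and 31.2, 27.1 and 35.0 CPM in the triple cross, against 1.44, 1.81 and 2.16 CPM in the Vhl/Hif1a cross. Every carrier library of floxed Hif2a was far above every library of the Vhl/Hif1a cross, and the 2 carrier crosses overlapped.

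Epcam encodes an adhesion molecule best known from epithelia. It was at 321, 291 and 343 CPM in the Vhl/Hif2a knockout and 157, 178 and 176 CPM in the triple knockout, against 33.4, 24.7 and 41.3 CPM in the Vhl/Hif1a knockout. The controls held 254, 393 and 391 CPM in the Vhl/Hif2a cross and 194, 202 and 240.0 CPM in the triple cross, against 66.8, 67.3 and 64.1 CPM in the Vhl/Hif1a cross. Epcam thus took 3 separate levels among the crosses, high in the Vhl/Hif2a cross, intermediate in the triple cross and low in the Vhl/Hif1a cross. Of the 14 epithelial markers, Krt19 (471 to 934 CPM) and Cdh1 (104 to 211 CPM) made up most of the sum, which was 606 to 1150 CPM in all libraries. Both moved with Epcam in some comparisons of knockouts and not in others. Cdh1 averaged 202 CPM in the Vhl/Hif2a knockout, 105 CPM in the triple knockout and 138 CPM in the Vhl/Hif1a knockout, and Krt19 averaged 856, 570 and 646 CPM in the same order. In the controls of these crosses, in that order, Epcam averaged 346, 212 and 66.1 CPM. Cdh1 averaged 139, 113 and 119 CPM there, and Krt19 580, 655 and 511 CPM. Both averages were thus higher in the Vhl/Hif1a knockout than in its control, while that of Epcam was lower. The triple knockout was lower than the Vhl/Hif2a knockout in Cdh1 (-0.94 ± 0.11, log2, SE; adjusted p = 9e-06, edgeR) and Krt19 (-0.59 ± 0.14, adjusted p = 0.0075). The Vhl/Hif1a knockout was lower than the Vhl/Hif2a knockout in Cdh1 (-0.55 ± 0.11, adjusted p = 0.0028), with Krt19 at -0.41 ± 0.14 (adjusted p = 0.095). Between the triple and Vhl/Hif1a knockouts, where Epcam was higher in the triple knockout, Cdh1 was lower (-0.39 ± 0.11, adjusted p = 0.026, edgeR). The part of epithelial cells in the Epcam differences was not tested. Scgb1a1, another of the 14 markers, averaged 3.78 CPM in the Vhl/Hif2a knockout, 8.31 CPM in the triple knockout and 3.10 CPM in the Vhl/Hif1a knockout. Sftpc, Krt8 and Krt18 were at or below 0.743, 0.263 and 0.250 CPM. Fewer cells of a type and less RNA per cell cannot be told apart in bulk samples.

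**Figure D1:**
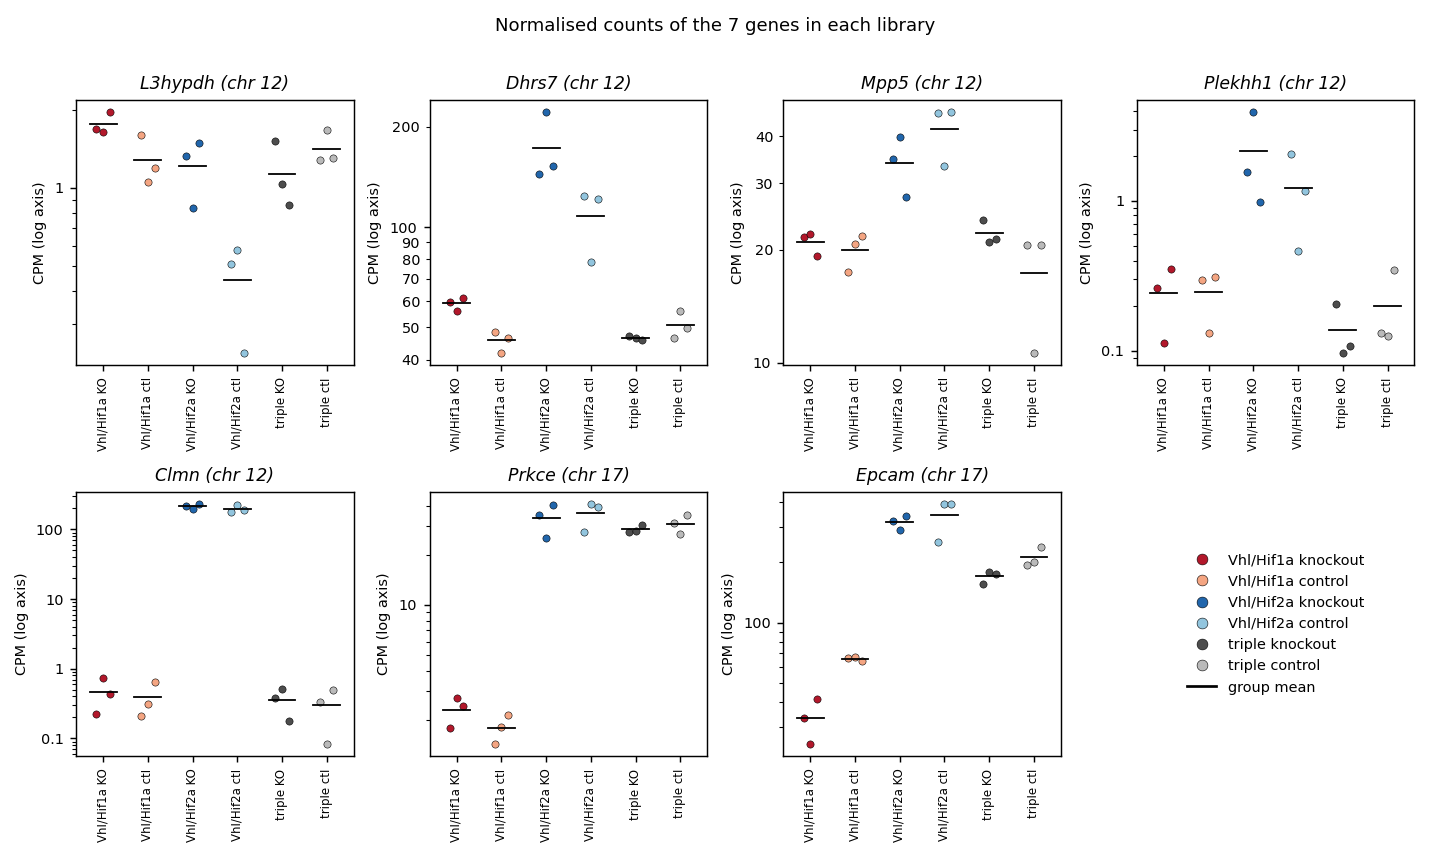
CPM of the 7 genes (log axis) in each of the 18 libraries, by group, with knockouts left of their controls; points are libraries and bars are group means. Clmn and Plekhh1 are high in the Vhl/Hif2a cross alone, Prkce is low in the Vhl/Hif1a cross alone (1.44 to 2.72 CPM), and Epcam falls into 3 levels.

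Per kilobase of exon, a scale that allows genes to be compared, the order in the Vhl/Hif2a knockout was Epcam (145 ± 11.8 CPM per kb, SD, n = 3), Dhrs7 (48.8 ± 11.9), Clmn (17.2 ± 1.62), Prkce (4.63 ± 1.05), Mpp5 (3.88 ± 0.70), L3hypdh (0.455 ± 0.127) and Plekhh1 (0.320 ± 0.231). Prkce and Mpp5 did not differ beyond their spread, nor did L3hypdh and Plekhh1.

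The comparison of knockout groups asked whether the cross differences recur in libraries that did not choose the genes. Genes were called where the p of edgeR's quasi-likelihood test, adjusted by the Benjamini-Hochberg method over all 12900 tested genes, was under 0.05; all 7 genes were tested. Between the 6 knockout libraries with floxed Hif1a and the 3 of the Vhl/Hif2a knockout, 3 of the 4 chromosome 12 genes that pass the filter on low counts without the Vhl/Hif2a cross were called, all lower in carriers, against 13.9% of all tested genes called and 8.19% called lower. Hif1a itself was called higher in these carriers (1.70 ± 0.17, adjusted p = 1.3e-06, edgeR). Clmn was lower by a log2 fold change of -9.002 ± 0.22 (SE, adjusted p = 3.3e-14), at 0.193% of the Vhl/Hif2a knockout level. Dhrs7 had a log2 fold change of -1.72 ± 0.13 (adjusted p = 7.7e-08) and Mpp5 of -0.66 ± 0.17 (adjusted p = 0.013). These 3 genes did not overlap between the groups, against 15.8% of all genes, and each had an exact two-sided permutation p of 0.0238, the smallest that 6 libraries against 3 allow. Plekhh1, which passed the filter only through the Vhl/Hif2a cross, had a fitted difference of -3.53, given as a description without a test. L3hypdh was not called, at 0.21 ± 0.27 with a 95% interval of -0.36 to 0.78 (adjusted p = 0.71; exact permutation p = 0.429). The Mpp5 call was lost without Vhl/Hif2a knockout library 1 (-0.64, adjusted p = 0.055) or library 2 (-0.54, adjusted p = 0.085, edgeR).

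Between the 6 knockout libraries with floxed Hif2a and the 3 of the Vhl/Hif1a knockout, both chromosome 17 genes were called higher in carriers, against 7.79% of all genes called and 3.53% called higher. The log2 fold change was 3.75 ± 0.20 for Prkce (adjusted p = 7.8e-09, 13.4-fold) and 2.81 ± 0.17 for Epcam (adjusted p = 1.1e-08, 7.03-fold). Neither gene overlapped between the groups, against 11.1% of all genes, and the exact permutation p was 0.0238 for each. Among knockouts the cross also fixes which HIF gene was deleted, so a difference carried by the cross and one that follows from loss of HIF-1α or HIF-2α cannot be told apart in this comparison.

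Taking the knockout groups in pairs, where 3 libraries against 3 cannot give a permutation p below 0.1, the Vhl/Hif1a knockout was called lower than the Vhl/Hif2a knockout in 5 of the 6 genes other than Plekhh1, L3hypdh being the exception (8.94% of all genes called). All 6 of these libraries are female. Prkce differed there by -3.86 ± 0.21 (adjusted p = 2.2e-09, edgeR) and Epcam by -3.26 ± 0.18 (adjusted p = 2.2e-09). The triple knockout was higher than the Vhl/Hif1a knockout in Prkce (3.63 ± 0.21, adjusted p = 6.6e-09) and Epcam (2.36 ± 0.18, adjusted p = 1.1e-07) and was called in none of the chromosome 12 genes (13.2% of all genes called). Against the Vhl/Hif2a knockout, the triple knockout was called lower in 4 of those 6 genes (19.3% of all genes called), namely Clmn, Dhrs7, Mpp5 and Epcam, the last by -0.90 ± 0.17 (adjusted p = 0.00087). Prkce was not called between those groups, at -0.22 with a 95% interval of -0.59 to 0.15 (adjusted p = 0.43, edgeR). Leaving out 1 library of either group ended the Mpp5 call in both comparisons with the Vhl/Hif2a knockout, except for the third Vhl/Hif2a library.

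For the control groups, which chose the genes, the same log2 differences were -9.11 for Clmn, -2.42 for Plekhh1, -1.17 for Dhrs7, -1.17 for Mpp5 and 1.59 for L3hypdh (carriers of floxed Hif1a against the Vhl/Hif2a control), and 4.21 for Prkce and 2.04 for Epcam (carriers of floxed Hif2a against the Vhl/Hif1a control). The knockout and control values of Clmn and Prkce lay within 0.5 of each other on this scale.

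**Figure D2:**
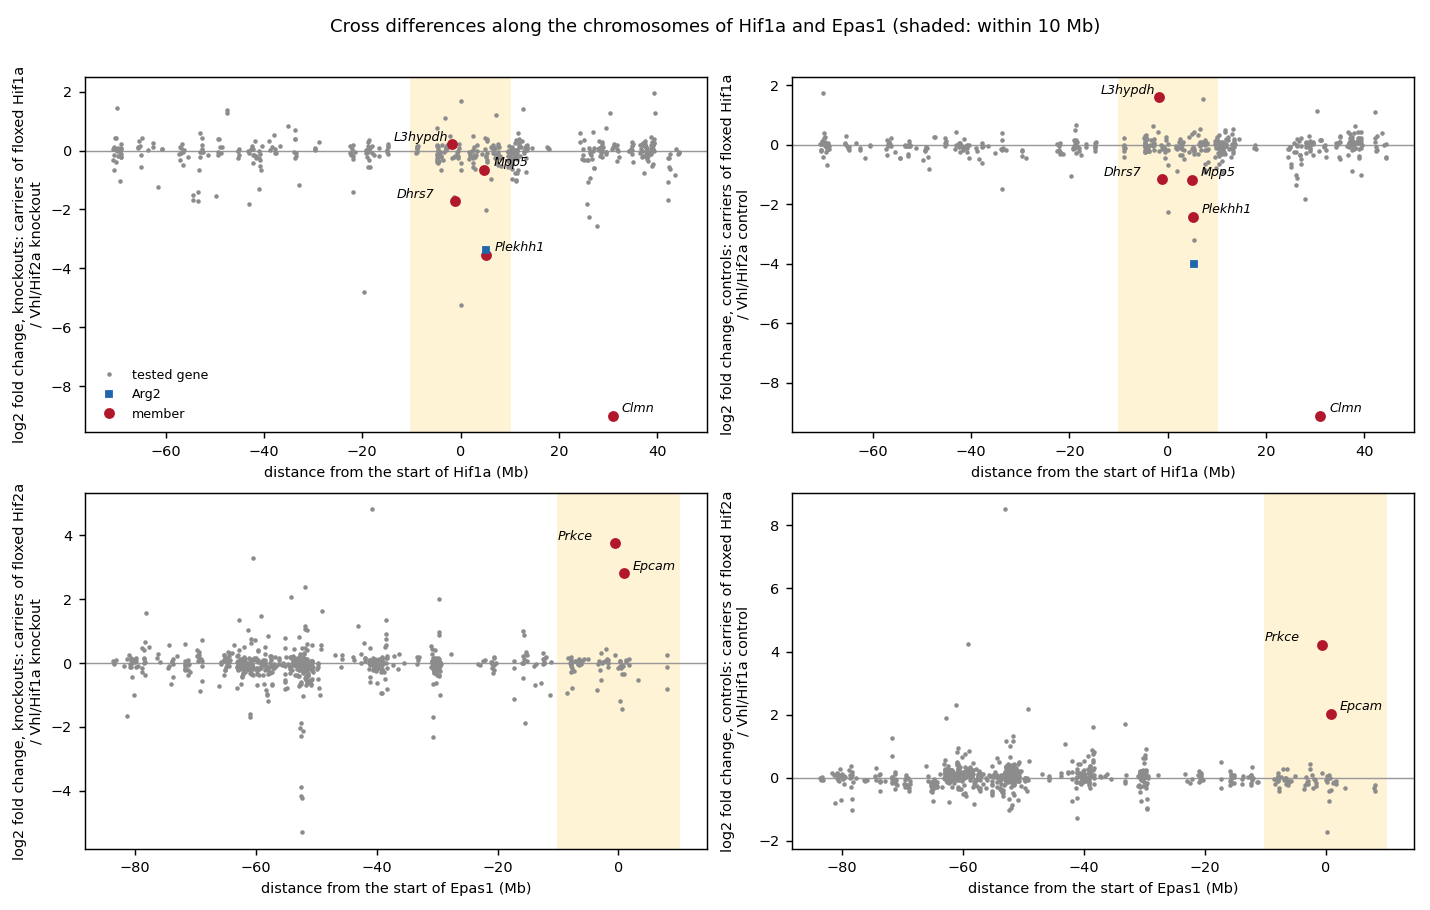
Log2 fold change of every tested gene on chromosome 12 (top) and chromosome 17 (bottom) against its distance in Mb from the start of Hif1a or Epas1, for knockout carriers of the floxed allele (left) and control carriers (right), each over the cross without it; red points are the 7 genes and the blue square is Arg2. Clmn, at 31.0 Mb, and Prkce and Epcam, within 1 Mb of Epas1, stand away from the bulk of the grey points in both columns.

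Within each cross, knockouts were then set against their own controls; the control libraries in these comparisons are those that chose the genes, so the values are not independent of the choice. In the Vhl/Hif1a cross, 1 of the 7 genes was called (3.64% of all genes called): Epcam averaged 33.1 ± 8.30 CPM in knockouts and 66.1 ± 1.73 CPM in controls (SD, n = 3 each), a log2 fold change of -0.996 ± 0.17 (adjusted p = 0.0017, edgeR). In the Vhl/Hif2a cross, 2 were called (14.7% of all genes). Dhrs7 averaged 173 ± 42.1 CPM in knockouts and 108 ± 25.6 CPM in controls (log2 fold change 0.68 ± 0.16, adjusted p = 0.0080). L3hypdh averaged 1.22 ± 0.340 CPM in knockouts and 0.441 ± 0.184 CPM in controls (1.45 ± 0.35, adjusted p = 0.0093); this low control level is the one that picked the gene, and the triple and Vhl/Hif2a knockouts, at 1.13 and 1.22 CPM, were not called apart (adjusted p = 0.87, edgeR). Both calls were lost when only the libraries compared were fitted (adjusted p = 0.066 and 0.057). In the triple cross, none of the 7 was called (0.0388% of all genes, 5 of them; DESeq2 called 11), and none of the 7 had an unadjusted p under 0.05 or was called by DESeq2.

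Clmn and Prkce were not called in any cross against their own control. For Clmn in the Vhl/Hif2a cross, where it is abundant, the log2 fold change was 0.12 with a 95% interval of -0.27 to 0.50, and for Prkce it was -0.10 (-0.47 to 0.27) there and -0.11 (-0.48 to 0.26) in the triple cross. Epcam was at -0.12 (-0.47 to 0.23) in the Vhl/Hif2a cross and -0.32 (-0.66 to 0.03) in the triple cross. Differences between crosses in these effects subtract the control values that picked the genes, so nothing is read from them. The interaction test of edgeR called 2.44% of all genes between the Vhl/Hif1a cross and the Vhl/Hif2a cross, and 7.99% between the Vhl/Hif2a and triple crosses, L3hypdh and Dhrs7 among the 7.99%.

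**Figure D3:**
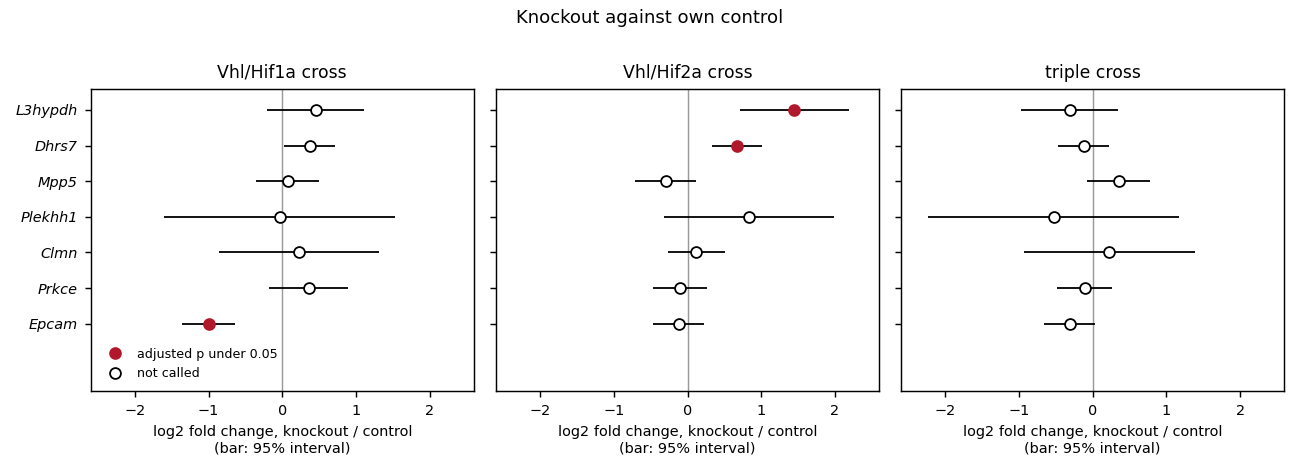
Log2 fold change of each gene, knockout over its own control, in the 3 crosses, with 95% intervals; filled points were called. The called genes are Epcam in the Vhl/Hif1a cross (-0.996) and L3hypdh (1.45) and Dhrs7 (0.68) in the Vhl/Hif2a cross.

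Most other genes around the floxed alleles were not called between crosses. With the 7 genes, Vhl, Hif1a and Epas1 left out, 18 of 112 tested genes within 10 Mb of Hif1a were called between knockout carriers of floxed Hif1a and the Vhl/Hif2a knockout (3 higher, 15 lower), which is 16.1% and near the 13.9% of all genes. Their median log2 fold change was -0.08, against -0.00098 for all genes. Between the Vhl/Hif1a and Vhl/Hif2a knockouts, in the same fit, 9 of the 112 were called (8.04%), near the 8.94% of all genes in that comparison. Within 10 Mb of Epas1, 4 of 59 were called (6.78%, all lower) between knockout carriers of floxed Hif2a and the Vhl/Hif1a knockout, near the 7.79% of all genes. Among controls, 4 of the 112 genes near Hif1a (3.57%, against 0.612% of all genes) and 2 of the 59 near Epas1 (3.39%, against 0.597%) were called. Around Vhl, whose floxed allele is common to all crosses, the same comparisons called 19 and 13 of 100 genes among knockouts, and 0 (9 at an unadjusted p under 0.05) and 2 among controls (edgeR).

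The nearest tested genes to Hif1a, Prkch (0.22, adjusted p = 0.15) and Snapc1l (-0.42, adjusted p = 0.70), were not called between knockout carriers and the Vhl/Hif2a knockout, and neither was Rhoq, the nearest beyond Epas1 (-0.09, adjusted p = 0.52, edgeR). Prkce is itself the nearest on the other side of Epas1. Among called annotated genes within 10 Mb of Hif1a and with a mean of at least 1 CPM, the largest difference outside the 7 genes was that of Arg2, the mitochondrial arginase, 5.23 Mb beyond its start and 0.382 Mb from Mpp5 between the genes' starts. Arg2 was at 1.61, 1.68 and 1.49 CPM in the Vhl/Hif1a knockout and 2.20, 1.198 and 2.28 CPM in the triple knockout, against 25.7, 16.7 and 11.1 CPM in the Vhl/Hif2a knockout. It was called lower in carriers among knockouts (-3.36 ± 0.27, adjusted p = 1.1e-07) and among controls (-4.02, adjusted p = 1.9e-07, edgeR). Zfp36l1, which promotes decay of AU-rich mRNAs, was lower among knockouts (-0.96, adjusted p = 0.00088); Snapc1 (-0.65), Fntb (-0.62) and Lrr1 (0.75) were also called there, and none of these 4 was called among controls.

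Near Epas1, Mcfd2, which takes part in the export of clotting factors from the endoplasmic reticulum, was at 69.2, 62.2 and 61.0 CPM in the Vhl/Hif2a knockout and 54.9, 56.6 and 52.1 CPM in the triple knockout, against 76.4, 73.3 and 74.4 CPM in the Vhl/Hif1a knockout. It was called among knockouts (-0.34 ± 0.06, adjusted p = 0.0017) and controls (-0.43, adjusted p = 0.0021, edgeR). Crim1 (-0.93) and Haao (-0.53) were called among knockouts and not among controls. Crim1 averaged 4.45 CPM in the Vhl/Hif2a knockout, 11.7 CPM in the triple knockout and 13.7 CPM in the Vhl/Hif1a knockout. Haao averaged 8.72, 4.23 and 8.78 CPM in the same order, so the carrier groups were not alike in either gene.

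**Figure D4:**
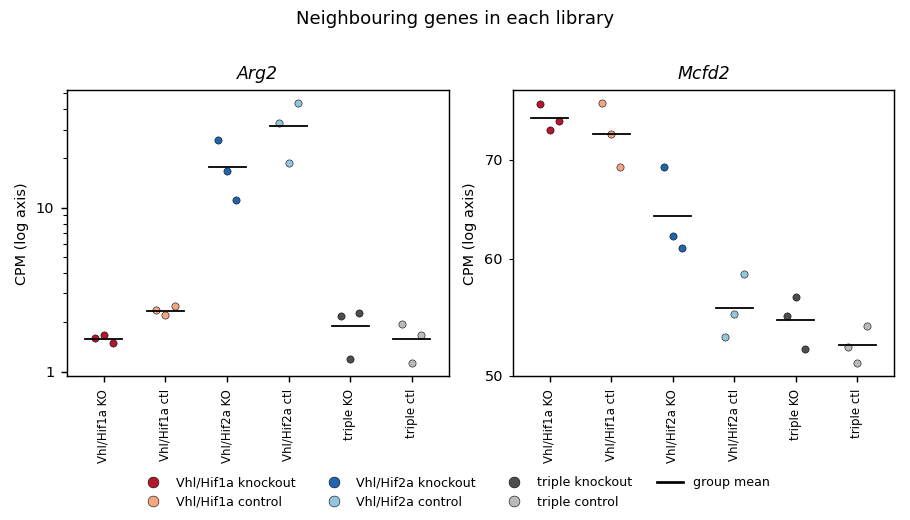
CPM (log axis) of Arg2 near Hif1a and of Mcfd2 near Epas1 in each library, by group, with knockouts left of their controls; bars are group means. Arg2 is above 11 CPM in the Vhl/Hif2a cross and below 3 CPM elsewhere, and Mcfd2 is at 69.2 to 76.5 CPM in the Vhl/Hif1a cross and at 51.0 to 69.2 CPM elsewhere.

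The tested genes immediately on either side of the 5 chromosome 12 genes, 10 in all, were picked by position after values were seen. Their log2 fold changes between knockout carriers of floxed Hif1a and the Vhl/Hif2a knockout ran from -0.26 to 0.49. Of the 10, 4 were called, against 13.9% of all genes: Daam1 (0.49), Atp6v1d (0.42), Jkamp (-0.26) and Ppm1a (-0.17). Atp6v1d, beside Mpp5, was also called higher in carriers among controls (0.37, adjusted p = 0.024, edgeR), and Daam1, Jkamp and Ppm1a were not. Dicer1 and Syne3, on either side of Clmn, were at 0.04 and 0.24 (adjusted p = 0.85 and 0.43, edgeR). Daam1 and Jkamp flank L3hypdh, which was not called itself.

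The genes whose levels followed each member most closely over the 18 libraries were found by Pearson's r of log2 CPM. Only annotated genes with a mean of at least 1 CPM were used. The libraries share crosses and knockouts, so r can reflect a difference of either kind, and it is given as a description. Clmn was closest to Arg2 (r = 0.956) and Lilra6 on chromosome 7 (0.913). Plekhh1 was closest to Dhrs7 (0.935) and Clmn (0.867), Dhrs7 to Clmn (0.906) and Stc2 on chromosome 11 (0.895), and Mpp5 to Arg2 (0.902) and Cd209b on chromosome 8 (0.871). Prkce was closest to Sirpb1a on chromosome 3 (0.939) and Epcam (0.918), and Epcam to Tc2n on chromosome 12 (0.929) and Prkce. L3hypdh stood apart, with r of -0.731 to -0.405 to the other 6 genes; Limk2 (0.803) and C5ar2 (0.802) were closest to it. Stc2 was high in 1 knockout and not in its control. It averaged 11.3 CPM in the Vhl/Hif2a knockout, 0.223 CPM in its control and at most 0.0277 CPM in the other groups. Lilra6 averaged 40.3 CPM in the Vhl/Hif2a knockout and 48.4 CPM in its control, against 15.9 to 23.8 CPM in the other groups. Lilra6, on chromosome 7, was picked because it followed Clmn over all 18 libraries. Its split between crosses therefore comes with that choice, and nothing is read from it.

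Over the whole table, 57 genes were called the same way between carriers of floxed Hif1a and the Vhl/Hif2a cross among knockouts and among controls, which is 3.19% of the knockout calls and 72.2% of the control calls; the knockout and control comparisons have no library in common. For floxed Hif2a there were 58 such genes (5.77% of the knockout calls, 75.3% of the control calls). These counts include 5 and 4 of the 7 genes, whose control levels picked them. Each comparison averages the carrier crosses, so a gene can be called where only 1 of them differs, and the same gene can enter both counts. For floxed Hif1a, 2 of the 5 are the chromosome 17 genes Prkce and Epcam. For floxed Hif2a, 2 of the 4 are chromosome 12 genes. With the 7 genes left out, 6 of 454 tested genes on chromosome 12 were of this kind for floxed Hif1a (1.32%, against 0.403% of all tested genes). For floxed Hif2a, 4 of 695 on chromosome 17 were of this kind (0.576%, against 0.419% of all). That share was higher on chromosome 3 (10 of 594, 1.68%), chromosome 1 (8 of 766, 1.04%), chromosome 12 (4 of 454, 0.881%), chromosome 6 (5 of 599, 0.835%) and chromosome 7 (7 of 1033, 0.678%). On the Y chromosome, 1 of 6 tested genes was of this kind. The triple cross, which carries both alleles, was male and the other crosses were female. Genes that differ by sex can therefore enter both counts, and sex and carrier state cannot be told apart for them.

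Relatives and partners of the 7 genes were followed in 7 lists. The median log2 fold change of all genes was -0.00098 between knockout carriers of floxed Hif1a and the Vhl/Hif2a knockout and 0.00099 between knockout carriers of floxed Hif2a and the Vhl/Hif1a knockout. Of all tested genes, 13.9% were called in the former comparison and 7.79% in the latter. Of 8 other protein kinase C isoforms, Prkcq was called higher (1.64 ± 0.48, adjusted p = 0.047, edgeR) and Prkcz lower (-1.19 ± 0.29, adjusted p = 0.019) in knockout carriers of floxed Hif2a, with a list median of -0.07. Prkcq was scarce, at a mean of 0.369 CPM over all libraries. Of 5 tested partners and relatives of Epcam, the tetraspanin Cd9 (0.19) and the hyaluronan receptor Cd44 (0.29) were called higher and the tight junction gene Cldn1 lower (-0.97), with a median of 0.15. Cldn1 rose in the Vhl/Hif1a knockout against its control (1.04 ± 0.17, adjusted p = 0.0014, edgeR), where Epcam fell and 3.64% of all genes were called.

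Between knockout carriers of floxed Hif1a and the Vhl/Hif2a knockout, 13.9% of all tested genes were called. There, 1 of 6 tested polarity partners of Mpp5 was called, Mpp7 (0.70, adjusted p = 0.018, edgeR), with a median of -0.01. In edgeR, none of 7 tested Dhrs-family genes (median 0.05; 0 at an unadjusted p under 0.05), none of 3 relatives of Plekhh1 (median 0.16; 2) and none of 5 calponin-homology and nuclear envelope relatives of Clmn (median 0.03; 0) was called there. Of 8 tested genes of proline and hydroxyproline metabolism, the pathway around L3hypdh, proline dehydrogenase (Prodh) was called lower (-0.94 ± 0.14, adjusted p = 0.00018), with a median of -0.01. Against their own controls, Prodh rose in the Vhl/Hif2a knockout (1.01 ± 0.17, adjusted p = 0.00069, edgeR), as did Dhrs3 (0.29). Aldh18a1, which makes the precursor of proline, fell in the Vhl/Hif1a (-0.37) and Vhl/Hif2a (-0.27) knockouts. Of all tested genes, 3.64% were called in the Vhl/Hif1a cross and 14.7% in the Vhl/Hif2a cross.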

How the data were processed

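RNA was measured in 18 libraries, 3 in each of 6 groups taken from the sample titles. The authors deposited 1 table of expected counts (estimated reads per gene) for 32789 genes; the unit was read from the values, 89.251% of which are whole. Per the submitters' processing notes, the tools FastQC, cutadapt and STAR and the build GRCm38 were used; the sources used here give no counting tool, strand setting or version. Intervals and errors cover counting error and the spread between libraries, not PCR duplicates.

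These expected counts, as deposited, were rounded and then filtered with filterByExpr, which left 12900 genes; library sizes, 19230452 to 34015320 counts, were scaled with TMM. A quasi-likelihood model of edgeR 4.0.16 (R 4.3.3) that gave each group its own coefficient was fitted over the 18 libraries, and p-values were adjusted by the Benjamini-Hochberg method over all tested genes. The standard error (SE) is the log2 fold change divided by the square root of F, which is approximate; 95% intervals use it. Single genes were also compared by two-sided exact permutation. The model was tested on simulated data. The members, lists and tests were chosen with earlier results of these data known. Positions come from GENCODE M21 on GRCm38 (12888 of 12900 tested genes matched by identifier), promoters from RefSeq.

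The text names the 7 genes, Vhl, Hif1a, Epas1, the nearest tested gene on each side of Hif1a and Epas1, the 2 genes most correlated with each member, up to 5 called genes with the largest fold change within 10 Mb of each, at a mean of at least 1 CPM, and list members as examples; predicted models were counted only, and 1 gene the rule names is not reported here. Alternatives were DESeq2 1.42.0, its size factors, no filter, each library left out, the replicate number as a block, only the compared groups, and windows of 5 and 20 Mb. Added after seeing the data was the contrast between the knockouts of the female crosses, taken from the main fit of all libraries.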

Additional observations from a re-analysis of the deposited data

Results flagged for a closer look

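The knockout effect on L3hypdh and on Dhrs7 passed edgeR's interaction test between crosses, which subtracts the control values that picked these genes, so the values are a description and nothing rests on them. For L3hypdh the effect in the Vhl/Hif2a cross (1.45) minus that in the triple cross (-0.31) was 1.76 ± 0.47 on the log2 scale, while the knockouts of the triple and Vhl/Hif2a crosses, at 1.13 and 1.22 CPM, were not called apart (adjusted p = 0.87, edgeR). For Dhrs7 the same difference was 0.80 ± 0.23 (0.68 in the Vhl/Hif2a cross and -0.12 in the triple cross). The triple cross was male where the Vhl/Hif2a cross was female, so the sex of the mice and the cross cannot be told apart.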

How the results depend on the processing

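Over 49 results on single members, 1131 values were recomputed under alternatives. Of these, 1115 kept their side of the threshold, 14 lost the call, 2 gained it and 0 reversed a call. Some values that were not called changed direction, such as Clmn in the triple knockout against its control (0.23, with alternatives from -0.16 to 0.71). The 49 results include those of Plekhh1 and the comparisons with the control libraries that picked the genes, so the tally describes the processing only. Fitting only the groups compared left 0 of 7 members called in the Vhl/Hif2a cross against its control and 2 in the Vhl/Hif1a cross, where Dhrs7 joined Epcam (0.37, adjusted p = 0.030, edgeR); Dhrs7 was also called between the triple and Vhl/Hif1a knockouts (-0.34, adjusted p = 0.0048). Fewer libraries then estimate the spread. The other lost calls were those of Mpp5 without single knockout libraries. With 1 library left out, the members called numbered 3 to 4 of 5 on chromosome 12, Plekhh1 among them, which passed the filter only through the Vhl/Hif2a cross, and 2 of 2 on chromosome 17. Control differences ran over the same settings from -9.42 to -8.91 for Clmn, -2.82 to -1.83 for Plekhh1, -1.35 to -1.06 for Dhrs7, -1.31 to -1.05 for Mpp5, 1.30 to 1.86 for L3hypdh, 4.07 to 4.37 for Prkce and 1.98 to 2.13 for Epcam.

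Called genes within 10 Mb of Hif1a ranged from 9 (without Vhl/Hif2a knockout library 1) to 25 with 1 library left out. In the same comparison, 30 were called within 20 Mb. Between the knockouts of the female crosses, in the main fit of all libraries, 9 were called within 10 Mb. Near Epas1 the range was 2 (without Vhl/Hif1a knockout library 1 or 2) to 7 (without triple control library 2), with 8 within 20 Mb. DESeq2 called 177 genes, against 79 by edgeR, between control carriers of floxed Hif1a and the Vhl/Hif2a control, 279 against 77 for floxed Hif2a, and 11 against 5 in the triple cross. Replicate numbers did not pair the libraries: same-numbered knockout and control deviations correlated at -0.218 to 0.200, with 1 of 9 above 0.1. The replicate block changed no call of a member, with 4 of 5 and 2 of 2 called in the carrier comparisons. Plekhh1, which had to differ there, is among the 4. In the main fit, 13.9% and 7.79% of all genes were called in these comparisons. At the lowest levels depth limits Plekhh1, L3hypdh and, in carriers of floxed Hif1a, Clmn.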
